A study of Gallus gallus with 6 samples.

Results

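The predicted small RNAs of 18 to 19 nt in chicken testes were described across birds fed a diet with or without Astragalus Polysaccharide (APS). A predicted small RNA is a sequence that matched no listed miRNA precursor and was called from its place in a hairpin folded from the chicken genome. Its name starts with PC-5p- or PC-3p-, for the arm of that hairpin. All sequences with such a name and a length of 18 or 19 letters were taken, each sequence once, with no use of their levels. This gave 94 sequences of 1151 distinct sequences in all, or 29.7% of the 317 predicted ones. The study asked whether dietary APS changed small RNA profiles of the testis in Cobb500 breeder cocks, a broiler breeder line. The A group was fed a corn and soybean diet with 10 g APS per kg feed, and the C group was fed that diet without it. Both groups were 40 weeks old, and small RNA of 3 testes (left side) per group was sequenced, with birds chosen at random from the replicates of each diet. Total small RNA of whole testis was measured, so that fewer cells of a type and less RNA per cell cannot be told apart.

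MiRNAs are cut from hairpin precursors by Drosha and Dicer, and 1 arm of the hairpin usually gives the strand that is loaded into an Argonaute protein. The seed, bases 2 to 8 of the loaded strand, pairs with target mRNAs. Mature animal miRNAs are mostly somewhat longer than the sequences described here, which lie at the lower edge of the 18 to 26 nt that the authors kept. Fragments of other RNAs can also fall in this length range, and a predicted sequence is a candidate, not a miRNA with a known role. The sources used here give no target or function for any of the sequences named below.

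The 10 most abundant sequences are shown first, since they held 77.2% of the counts of the 94. They are printed 5′ to 3′ as DNA letters from the deposited table, with the seed in capitals.
PC-3p-3122_828: tCTGATCGttttttcact
PC-5p-14258_282: tCAGTTGTtgagaggatg
PC-5p-5773_549: cGGCTGGGaagggctgcc
PC-5p-8157_430: tGGTGTATgtgcttggct
PC-5p-4603_641: aGACATGAgaggtgtaga
PC-3p-9281_392: cGGCGTCGggccggccgc
PC-5p-14476_279: cCGTCGGAtccccgcctc
PC-5p-196382_22: tGAGAGGCtgttcctgtct
PC-3p-50034_93: tGCCTGGGcagggcgaagc
PC-5p-62239_75: cAGGTGCAgatcttggtgg
Another 7 sequences are shown because they had an unadjusted p under 0.05 between the diets, as PC-5p-8157_430 and PC-3p-50034_93 also did.
PC-5p-219666_20: cTGGGGCGcgggcccgggt
PC-3p-142505_31: gCGGGCCCgggtggagcc
PC-5p-582426_7: cCCAAGAAacaggacacct
PC-3p-88137_52: tCCTGGTCgtctctggggt
PC-5p-1423460_3: tCTGGAGCcaagaatgtct
PC-3p-173245_25: cCCTGACAgtggacagttg
PC-5p-175928_25: cTTTCCCCgctcccgctc

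The libraries held 576705 to 721279 counts in A and 497285 to 743183 counts in C, summed per distinct sequence. Levels are given as CPM, a sequence's share of the TMM-adjusted library total scaled to a common size, and 3 counts, the most that a count of 0 allows, were 4.46 to 5.47 CPM, which covers counting error only. All 6 markers of the testis and germ line list, which holds miR-202-5p and also miR-2954, listed as male-biased, were counted in every library. C replicate 1 had the lowest total in the table, though not the fewest valid reads in the study's list. By that list it also lost the most raw reads to the adapter and length filter. C replicate 1 stood apart in the sequences described here, so many of the values that rest on it are also given without it. Of 13 markers of red and white blood cells, muscle, liver and nervous system, 10 were counted. Their sum was 38752 to 40631 CPM in A, 32375 CPM in C replicate 1 and 37149 and 37172 CPM in the other C libraries. Most of it was miR-146 of the white cell list, at 24623 CPM in C replicate 1 and 29885 to 34416 CPM in the others. Among the other markers counted, miR-142, miR-144, miR-122, miR-124 and miR-9 were highest in C replicate 1. The rest, miR-155, miR-1a, miR-133 and miR-499, were not. The sum of the testis and germ line list was 74194 to 93097 CPM in A and 81632 to 102311 CPM in C, highest in C replicate 1. Most of it was miR-202-5p and miR-2954. In C replicate 1, miR-202-5p, miR-202-3p and miR-449 were at their highest, but miR-34b, miR-34c and miR-2954 were not. The part of cell make-up in the results below was not tested.

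The 94 sequences were a small and uneven share of the small RNA. They held 8280 counts, or 0.224% of all counts and 14.6% of the counts of predicted sequences. Counts over the 6 libraries ranged between 3 and 1362 per sequence, with a median of 14.5, against a median of 31.5 for the 124 predicted sequences of 20 to 24 nt and 36 for the 99 of 25 to 26 nt. The 6 most abundant, all of 18 nt, held 67.8% of the counts. Only 12 sequences reached 100 counts, 37 reached 20 counts, and 33 stayed under 10 counts. By mean CPM, the 10 most abundant ranked between 94 and 252 among all distinct sequences of the table. The other 84 had mean levels of 0.895 to 34.1 CPM, with a median of 3.38 CPM, which is below the level of 3 counts in any 1 library.

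**Figure D1:**
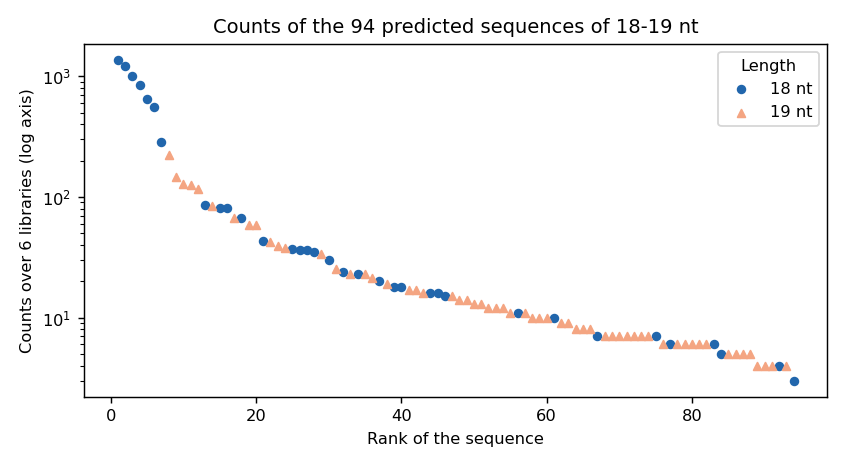
Counts over the 6 libraries (vertical log axis) of each of the 94 predicted sequences against its rank (horizontal axis), with circles for 18 nt and triangles for 19 nt. The 6 highest points are all of 18 nt, and the counts span 3 to 1362.

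Length divided the sequences more than arm did. The 34 sequences of 18 nt held 6639.5 counts, 80.2% of those of the 94, with a median of 27. The 60 sequences of 19 nt held 1640.5 counts with a median of 11. By arm, 43 sequences named 5p held 5188 counts (62.7%), with a median of 12, and 51 named 3p held 3092 counts (37.3%), with a median of 16. The most abundant sequence of 18 nt in each arm was PC-5p-14258_282 and PC-3p-3122_828, and for 19 nt it was PC-5p-196382_22 and PC-3p-50034_93.

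Many of the sequences were seen in some libraries only. All 6 libraries counted 42 of the 94, and 16 were counted in 5 libraries, 15 in 4, 12 in 3, 7 in 2 and 2 in 1. A total of 6 sequences were at 0 in all A libraries, among them PC-5p-582426_7, and 2 were at 0 in all C libraries, PC-3p-748472_5 and PC-5p-2142728_2. Every one of the 94 reached at least 3 counts in some library, and in 28 of them the highest library had exactly 3. The same minimum of 3 was found in the longer predicted sequences but not among sequences with miRBase names. A sequence at 0 in a diet, such as PC-5p-2142728_2, had too few counts to be read as absent from it.

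The abundant sequences are described one at a time. PC-3p-3122_828, which has a run of 6 T after its seed, had the highest mean level. It was at 446, 263 and 448 CPM in A replicates 1 to 3, against 558, 221 and 308 CPM in C replicates 1 to 3. The diets overlapped, and the log2 fold change of A over C was 0.09 (standard error 0.35, edgeR quasi-likelihood test, Benjamini-Hochberg adjusted p = 0.955). PC-5p-14258_282 was at 348, 319 and 400.2 CPM in A, against 390.2, 221 and 293 CPM in C. Its A libraries lay close together, and C replicate 1 lay among them. Its log2 fold change was 0.24, standard error 0.24.

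PC-5p-5773_549, a sequence rich in G and C, was at 268, 175 and 216 CPM in A, against 524, 207 and 302 CPM in C. C replicate 1 was the highest of the 6 libraries, C replicate 2 lay within the A range and C replicate 3 above it. PC-5p-8157_430 was at 159, 114 and 158 CPM in A, against 562, 193 and 226 CPM in C. All C libraries of PC-5p-8157_430 were above all A libraries, and C replicate 1 was far above the other 2. The log2 fold change was -1.19 (standard error 0.40, edgeR, unadjusted p = 0.0143), and -0.55 (standard error 0.24) without C replicate 1 (unadjusted p = 0.0504). PC-5p-4603_641 was at 178, 160 and 170 CPM in A, against 338, 88.1 and 133 CPM in C. Here C replicate 1 was above, and the other C libraries below, every A library. The log2 fold change of PC-5p-4603_641 was -0.14, and 0.61 without C replicate 1 (edgeR, unadjusted p = 0.0465).

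PC-3p-9281_392, made up almost wholly of G and C, was at 157, 114 and 143 CPM in A, against 276, 102 and 129 CPM in C. PC-5p-14476_279 was at 60.3, 64.5 and 77.4 CPM in A, against 165, 49.4 and 52.8 CPM in C. In both, C replicate 1 was the highest library and the other 2 C libraries lay within or below the A range. PC-3p-50034_93 was at 30.2, 13.8 and 26.8 CPM in A, against 102, 30.9 and 45.6 CPM in C. The C libraries of PC-3p-50034_93 were all above the A libraries, with C replicate 2 just above A replicate 1. PC-5p-62239_75 was at 26.8, 18.4 and 34.2 CPM in A, against 78.8, 24.7 and 31 CPM in C, again with C replicate 1 apart and the rest mixed.

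PC-5p-196382_22 varied least among these 10. It was at 73.7, 56.8 and 59.5 CPM in A, against 62.6, 54.1 and 54.7 CPM in C. All 6 libraries were alike, with a log2 fold change of 0.15 and a standard error of 0.26. It is also the only one of the 94 that lies wholly within another predicted sequence of the table, as the capitals of the longer one show.
PC-3p-143287_31: TGAGAGGCTGTTCCTGTCTtgtat
The longer sequence, of 24 nt, was at 152, 84.4 and 84.8 CPM in A, against 87.7, 104 and 117 CPM in C. The shared bases start both sequences, and their names carry opposite arms.

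**Figure D2:**
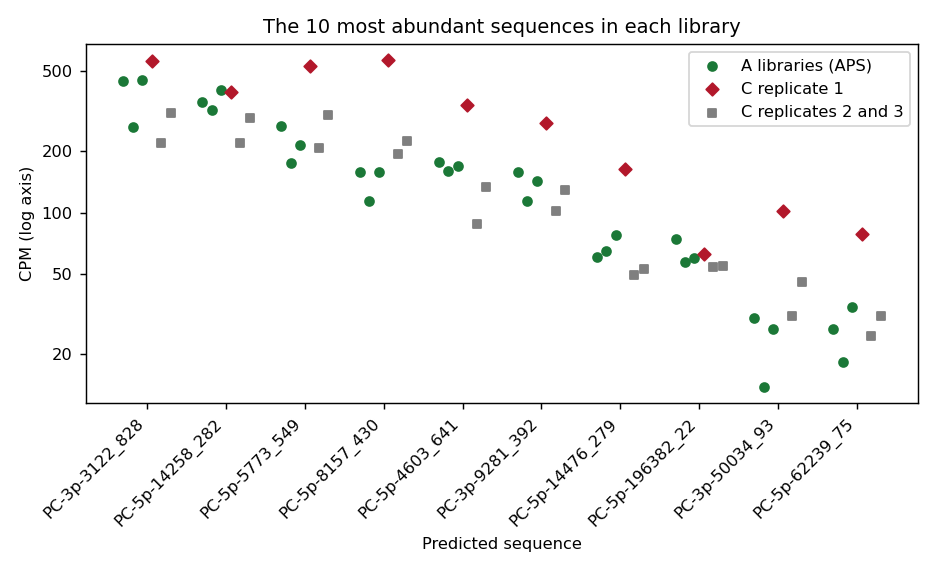
CPM (vertical log axis) of the 10 most abundant sequences (horizontal axis) in each library, with circles for the A libraries, diamonds for C replicate 1 and squares for C replicates 2 and 3. C replicate 1 is the highest library in 8 of the 10, and PC-5p-196382_22 shows the least spread.

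One library carried much of the level of the set. The summed CPM of the 94 was 2138, 1700 and 2177 in A replicates 1 to 3 (2005 ± 265, SD, n = 3), against 3961, 1643 and 2112 in C replicates 1 to 3 (2572 ± 1226, SD, n = 3). C replicate 1 was 2.03 times the mean of the other 5 libraries, which lay within 1.33 times of each other. Without C replicate 1 the C mean was 1877 CPM, below the A mean. The ratio was 1.99 on the deposited normalized values, where the sums were 1286, 1049 and 1296 in A, against 2377, 1049 and 1287 in C. It was 2.30 with CPM not adjusted by TMM and 2.10 without PC-3p-3122_828. C replicate 1 held 26.7% of the counts of the 94, and the other libraries held 12.8% to 17.7% each.

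The excess in C replicate 1 was spread over many sequences. It was the highest library by CPM in 49 of the 94, in 25 of the 37 with at least 20 counts (67.6%), and in 8 of the 10 most abundant. Among the 37, its level was a median of 2.14 times the mean of the other 5 libraries, between 0.870 times (PC-5p-128279_35) and 5.27 times (PC-5p-219666_20), and 19 were above 2 times. Of the predicted sequences of 20 to 24 nt with at least 20 counts, C replicate 1 was highest in 15 of 75 (20%), and of those of 25 to 26 nt in 15 of 63 (23.8%). No test was made of this difference between lengths, since sequences of 1 library are not replicates of it. Few sequences rested on 1 library alone. Of those with at least 10 counts, 3 had over 50% of them in 1 library, each time C replicate 1. They were PC-5p-363578_11 (10 of 16 counts), PC-5p-1423460_3 (7 of 12) and PC-5p-1514103_3 (6 of 11).

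By length, the excess was seen at 18 to 20 nt and was small or missing at 21 to 26 nt. C replicate 1 over the mean of the other 5 libraries was 2.09 for the predicted sequences of 18 nt and 1.78 for those of 19 nt. The 11 predicted sequences of 20 nt were at 1.93, with 224 CPM in C replicate 1 and 78.3 to 149 CPM in the others. The ratio was 0.851 at 21 nt, 0.937 at 22 nt, and between 0.955 and 1.09 at 23 to 26 nt. At 24 nt C replicate 1 was still the highest library, at 3403 CPM, against 2751 to 3331 CPM in the others. The predicted sequences of 20 to 24 nt summed to 9305 ± 1058 CPM in A and 9046 ± 1036 CPM in C, and those of 25 to 26 nt to 3992 ± 123 CPM in A and 4002 ± 201 CPM in C (SD, n = 3 each). The 98 sequences of 18 to 19 nt with miRBase names had a similar excess. They summed to 1459, 1538 and 1912 CPM in A, against 3249, 1133 and 1492 CPM in C, with C replicate 1 at 2.16 times the other 5. All 834 sequences with miRBase names, summed, were at 0.862 times. They held 98.5% of all counts, so this ratio is largely set by the TMM scaling, and all 1151 sequences were at 0.867 times. Among those of the 834 with at least 20 counts, the median ratio of single sequences was 0.956.

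**Figure D3:**
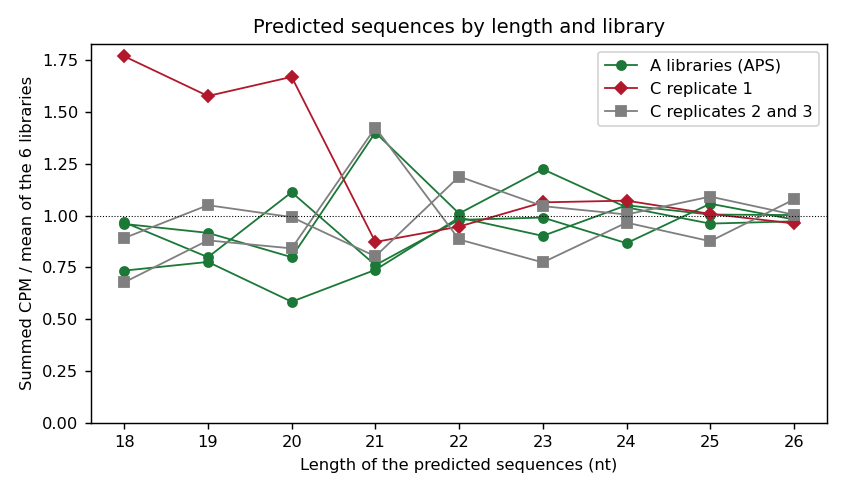
Summed CPM of the predicted sequences of each length divided by the mean of the 6 libraries (vertical axis) against length in nt (horizontal axis), with circles for the A libraries, diamonds for C replicate 1 and squares for C replicates 2 and 3. C replicate 1 stands above the other libraries at 18, 19 and 20 nt. At 21 to 26 nt it lies among the other libraries, except just above them at 24 nt and just below them at 26 nt.

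Base composition also differed along the set. In 17 of the 94 (18.1%), G and C made up at least 70% of the bases, as in 9 of 124 (7.26%) predicted sequences of 20 to 24 nt and 1 of 99 (1.01%) of 25 to 26 nt. The medians of GC content were 52.6%, 58.3% and 53.8% in the same order. The first base was T in 37 of the 94 (39.4%), against 58.9% at 20 to 24 nt and 58.6% at 25 to 26 nt, and it was C in 27 (28.7%), against 14.5% and 5.05%. A first T (U in RNA) is the base that many loaded miRNAs carry. These traits were not particular to the predicted sequences. Of the 98 sequences of 18 to 19 nt with miRBase names, 18 (18.4%) had at least 70% GC, with a median GC of 55.6%. Their first base was T in 32.7% and C in 22.4%. These shares are descriptions of the lists, with no test.

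The GC-rich sequences carried the excess of C replicate 1 most strongly. The 17 with at least 70% GC summed to 593, 445 and 546 CPM in A, against 1366, 493 and 634 CPM in C, with C replicate 1 at 2.52 times the mean of the other 5. It was the highest library in all 12 of these that had at least 20 counts. Some of the 12 share bases, such as PC-5p-219666_20 and PC-3p-142505_31, and are not independent. The 46 sequences of 50 to 70% GC had a ratio of 2.26, and the 31 under 50% GC one of 1.59. In the middle group PC-5p-8157_430 alone gave 562 of the 1178 CPM of C replicate 1. Single sequences with at least 20 counts had median ratios of 3.34, 1.47 and 1.66, in order of falling GC group. C replicate 1 was highest in 10 of 19 of them at 50 to 70% GC and in 3 of 6 under 50%. By single sequences, only the group of at least 70% GC stood apart. Over the 37 sequences with at least 20 counts, GC content and the weight of C replicate 1 went together, with Spearman's rho of 0.53 and Pearson's r of 0.56 on the log2 ratio. These points share the same 6 libraries and are no replicates, so that no p is given. The arms were alike, with ratios of 2.08 for 5p and 1.95 for 3p.

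**Figure D4:**
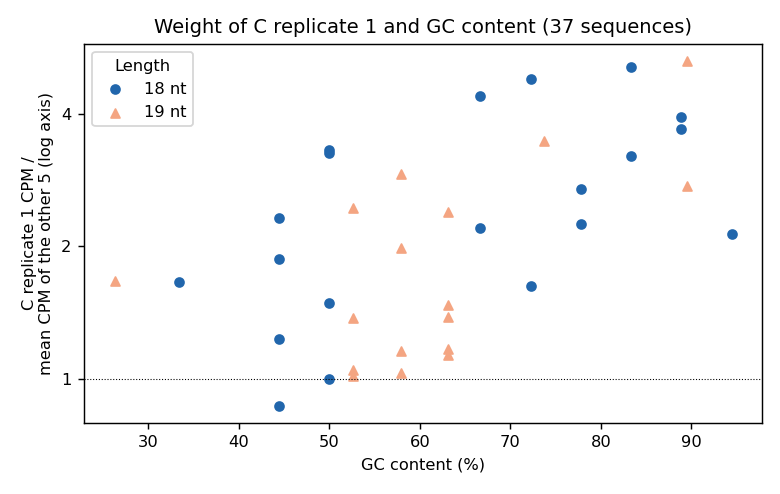
Level in C replicate 1 over the mean of the other 5 libraries (vertical log axis) against GC content in percent (horizontal axis) for the 37 sequences with at least 20 counts, with circles for 18 nt and triangles for 19 nt. The ratios run between 0.870 and 5.27, and the dotted line marks a ratio of 1.

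Some of the sequences overlapped each other. With at least 12 shared bases, 7 of the 94 formed 3 groups, which are shown joined into 1 run each, with the bases that all members of a group share in capitals.
PC-5p-219666_20 with PC-3p-436462_9 and PC-3p-142505_31: ctggggcGCGGGCCCGGGTggagcc
PC-5p-5773_549 with PC-3p-214993_20: cggctGGGAAGGGCTGCCggcgg
PC-3p-76563_60 with PC-3p-423361_10: cGGGCGGGCGGTCGGTGCgg
In the first and second groups the names carry both arms. All 3 joined runs are at least 82.6% G and C. The first group had 8, 8 and 9 counts in A, against 54, 20 and 18 counts in C, which is 13 ± 0.643 CPM in A and 53.5 ± 37.4 CPM in C (SD, n = 3 each), or 31.9 CPM in C without replicate 1. Every A library of that group was below every C library, and C replicate 1 was the highest. Within it, PC-3p-436462_9 alone had 3, 1 and 2 counts in A, against 6, 2 and 0 counts in C, which overlap. The second had 160, 118 and 146 counts in A, against 304, 138 and 169 counts in C, nearly all of them from PC-5p-5773_549. The group around PC-3p-76563_60 had 18.9 ± 5.11 CPM in A and 37.8 ± 27.7 CPM in C, or 21.7 CPM in C without replicate 1, where the diets overlapped.

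No seed was shared. The 94 sequences had 94 distinct seeds, and 0 of them equalled the seed of a chicken miRNA of the table, against 6 of 124 (4.84%) predicted sequences of 20 to 24 nt and 7 of 99 (7.07%) of 25 to 26 nt. Among sequences with names of other species, PC-3p-836952_5 shared 17 bases with a variant of mmu-miR-2137 (13 and 33 counts), and PC-5p-5773_549 shared 15 with a variant of bta-miR-2407 that had 1 count.

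Spread within a diet, set against that of counting alone, differed widely between sequences. The dispersion index, the variance within diets over that of counting alone, was a median of 2.25 over the 37 sequences with at least 20 counts, and above 2 in 21 of them. It was highest for PC-5p-8157_430, at 38.9, and lowest for PC-5p-97606_47, at 0.109. At the same relative spread this index rises with the counts, so it does not rank relative spread. PC-5p-8157_430 was at 143 ± 25.9 CPM in A and 327 ± 204 CPM in C (SD, n = 3 each). PC-5p-219666_20, at 5.74 ± 3.18 CPM in A and 32.6 ± 23.0 CPM in C, varied more relative to its means, with an index of 5.37. PC-5p-97606_47 had 11, 13 and 15 counts in A, against 13, 17 and 15 counts in C, or 18.4, 20 and 22.3 CPM in A, against 23.3, 26.3 and 27.3 CPM in C. PC-5p-196382_22 was at 0.519, where 1 is the value that counting alone gives.

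The diets were compared in a fit over all 774 sequences that passed the filter on low values, all 94 among them. No sequence had an adjusted p under 0.05 in edgeR's quasi-likelihood test with Benjamini-Hochberg adjustment, 0 of the 94 and 0 of the 774 (0%), and the adjusted p of the 94 lay between 0.690 and 0.997. At an unadjusted p under 0.05, 9 of the 94 were lower in A, against 3.49% of all sequences, and 0 were higher, against 2.45%, with 5.94% of all sequences in either direction. DESeq2 and limma-voom also gave 0 adjusted calls among the 94, with 3 and 6 at an unadjusted p under 0.05, against 2.97% and 7.49% of all sequences. With no filter on low values, edgeR gave an adjusted p under 0.05 for 12 of 1123 sequences (1.07%), of which 2 were among the 94, PC-5p-8157_430 and PC-5p-219666_20. With the filter and without A replicate 1, the 9 became 4. In all, 68 of the 94 had a negative log2 fold change and 26 a positive one, against 54.9% negative over all sequences tested. The median log2 fold change was -0.65, against -0.08 over all. A sequence that passed the filter only through the diet where it was higher had to differ, and 26 of the 94 passed through C only and 9 through A only. Of the 59 that passed in both diets, a set formed after the data were seen, 42 were negative and 17 positive, against 50.8% negative over all such sequences, and their median was -0.39, against -0.02. Of the 9, 7 passed in both diets, and PC-5p-582426_7 and PC-5p-1423460_3 passed through C only.

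Without C replicate 1 this lean was smaller. Of the 82 sequences then tested, 48 had a negative and 34 a positive log2 fold change, against 53.9% negative over all. The median was -0.29, against -0.06 over all. These 82 are not the same set as the 94. The 12 no longer tested all had a negative log2 fold change with all libraries, so part of the drop is a change of set. In the 59 that passed in both diets, the median was -0.394 with all libraries and -0.285 without C replicate 1, a smaller change. An unadjusted p under 0.05 was found for 1 lower in A, PC-5p-219666_20, against 2.86% of all sequences, and for 1 higher, PC-5p-4603_641, against 1.82%, with 4.69% in either direction. The 12 sequences not tested without C replicate 1 had all been highest there. They had passed the filter only with that library counted, so the filter largely set this in advance. In the 17 GC-rich sequences the median was -1.07 with all libraries and -0.22 without C replicate 1. In the 31 under 50% GC it was -0.14, and 0.11 over those still tested without C replicate 1. The summed level of the 94 had a log2 ratio of A over C of -0.36, and of 0.09 without C replicate 1.

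**Figure D5:**
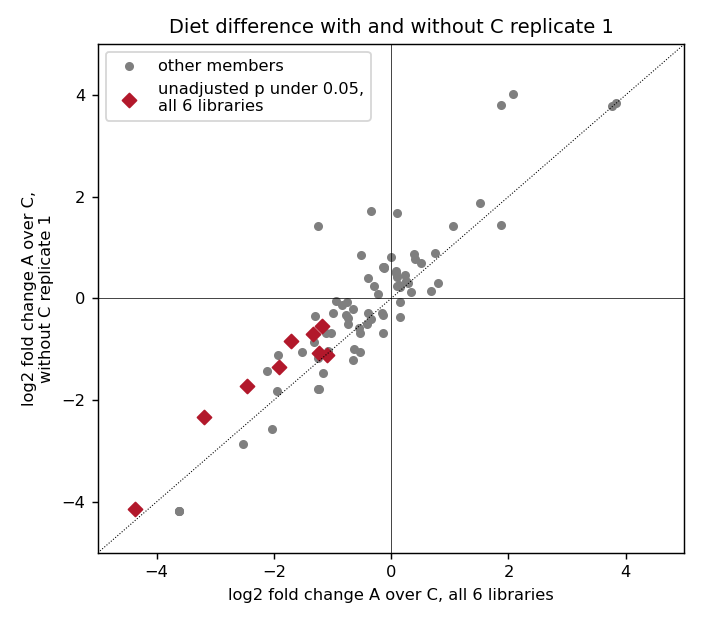
Log2 fold change of A over C without C replicate 1 (vertical axis) against that with all 6 libraries (horizontal axis) for the 82 sequences tested in both, with diamonds for the 9 with an unadjusted p under 0.05 and points for the others. The dotted line marks equal values, and the 9 diamonds stay below 0 on both axes. The 9 were chosen on the fit of the horizontal axis, which shares libraries with the vertical one.

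The 9 sequences with an unadjusted p under 0.05 were highest in C replicate 1 in 8 cases, and all 9 stayed negative without it. They had been chosen with the libraries that remain, so the kept direction is partly built in. Only 1 of the 9 kept an unadjusted p under 0.05 in edgeR. PC-5p-219666_20 had the smallest p. It had 3, 6 and 2 counts in A, against 33, 11 and 12 counts in C, or 5.74 ± 3.18 CPM in A and 32.6 ± 23.0 CPM in C (SD, n = 3 each). No A library of PC-5p-219666_20 reached the lowest C library. The log2 fold change was -2.46 (standard error 0.62, edgeR, unadjusted p = 0.00301), and -1.71 without C replicate 1 (unadjusted p = 0.0187). PC-3p-142505_31, which overlaps it, had 2, 1 and 5 counts in A, against 15, 7 and 6 counts in C, with a log2 fold change of -1.91 and a standard error of 0.66. Without C replicate 1 the log2 fold change of PC-3p-142505_31 was -1.36 (standard error 0.77, edgeR, unadjusted p = 0.112). The pair shares bases and libraries and is not independent.

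PC-3p-88137_52 was the only one of the 9 that was not highest in C replicate 1. It had 7, 8 and 5 counts in A, against 12, 10 and 17 counts in C, with a log2 fold change of -1.09 (standard error 0.42), and -1.12 without C replicate 1. PC-3p-173245_25 had 2, 4 and 6 counts in A, against 10, 9 and 7 counts in C, with a log2 fold change of -1.23 (standard error 0.49), and -1.08 without it. In both, no A library reached the lowest C library. PC-3p-50034_93 had a log2 fold change of -1.32 (standard error 0.49), and -0.70 without C replicate 1.

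PC-5p-175928_25 had 4, 2 and 3 counts in A, against 17, 3 and 7 counts in C, so that C replicate 2 lay within the A range. The log2 fold change was -1.70 (standard error 0.72), and -0.84 (standard error 0.79) without C replicate 1 (edgeR, unadjusted p = 0.319). PC-5p-1423460_3 had 0, 1 and 0 counts in A, against 7, 1 and 3 counts in C, which overlap at 1 count. PC-5p-582426_7 had 0 counts in every A library, against 3, 2 and 2 counts in C. Set against 3 counts over the A group, it was 2.55-fold lower in A. That value takes its 7 counts in C as exact, so it is no lower limit. The sequence was also tested only because of its level in C. These last sequences are at the level of a few counts, where a difference of this size rests on single reads.

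CPM ranges that did not overlap between the diets were found for 13 of the 94 with A lower, against 7.11% of all sequences tested, and for 1 with A higher, against 5.94%. The 1 with A higher was PC-3p-457530_9, with 3, 2 and 2 counts in A, against 1, 0 and 1 counts in C. PC-3p-457530_9 passed the filter through A only, the diet where it was higher. Among the 13 were PC-5p-8157_430, PC-3p-50034_93, PC-5p-97606_47, PC-5p-219666_20 and PC-3p-88137_52. In 5 of the 13, PC-5p-97606_47 and PC-5p-1423460_3 among them, the counts themselves overlapped or tied, so that only the scaling by library set the diets apart. Of the 13, 4 passed the filter through C only. The edgeR p-values rest on 3 birds per diet, but also on the spread of the other sequences in the fit. PC-5p-8157_430 had an unadjusted p of 0.0143 in edgeR with the filter on low values. With no filter, on the same counts, edgeR gave it 3.18e-06. These p-values therefore do not measure the spread between birds of the sequence alone.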

How the data were processed

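Small RNA of 6 testes was sequenced by the authors. Per the labels, ACGT101-miR (4.2) was used, with miRBase 21 precursors, for reads of 18 to 26 nt. The genome build was not given in the sources used here, so that no positions are given. The labels and the study's methods differ on the RNA kit and the sequencer. The raw columns deposited by the authors hold expected counts: where a sequence has several lines, its reads were divided equally between them. Fractions also occur in sequences with 1 line, such as PC-3p-76563_60 with 12.5 counts in A replicate 1. Division between lines of the same sequence does not account for those. The deposited normalized values (signal) are those counts times 1 constant per library. The authors' columns of fold change, log2 fold change and p-value from their own comparison were not used.

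The 1302 lines were summed to 1151 distinct sequences. Of the deposited expected counts, 87.3% were whole per line and 94.3% per sequence (within 0.001), and sums were rounded for the tests. Sequences whose normalized values averaged 1 or more in either diet were tested with edgeR 4.0.16 (TMM, quasi-likelihood F test, Benjamini-Hochberg adjustment, R 4.3.3), with diet as the only term. The standard error is the log2 fold change over the square root of F. The biological coefficient of variation was 30.5%. Limma 3.58.1, DESeq2 1.42.0, other scalings, filters and left-out libraries were alternatives. Data simulated over 774 sequences held changes of several sizes. Of those changed 4-fold, edgeR recovered 95.8% of 24 with high counts and 11.9% of 42 with low counts (adjusted p under 0.05). No simulated library stood apart as C replicate 1 did, so these shares may be too high for the data here.

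Named were the 10 most abundant sequences, those with an unadjusted p under 0.05, those with over 50% of at least 10 counts in 1 library, those that overlap by at least 12 bases or share bases with a sequence named after miRBase, and the most abundant of each arm and length. Others, such as PC-5p-97606_47, PC-5p-128279_35, PC-3p-457530_9, PC-3p-748472_5 and PC-5p-2142728_2, were chosen after their values were seen. The sequences and lists were chosen with earlier results of these data known. Reads carried no molecular tags, so that limits from 3 counts cover counting error only. Python 3.11.15, pandas 2.3.3, SciPy 1.17.1 and matplotlib 3.10.9 were used.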

Additional observations from a re-analysis of the deposited data

How the results depend on the processing

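The 9 sequences of the 94 with an unadjusted p under 0.05 became 4 with a filter at a mean of 10 and 3 in the DESeq2 Wald test, all lower in A, and 2 to 12 when each library was left out in turn (1 to 12 lower in A, with 1 without C replicate 1 and 4 without A replicate 1). Over all sequences the 46 became 84 with no filter on low values, 29 with the filter at 10 and 23 with DESeq2, and 31 to 59 with each library left out. With no filter, 12 sequences had an adjusted p under 0.05, and 2 of them were among the 94, PC-5p-8157_430 (7.13e-04) and PC-5p-219666_20 (0.00226). In every other setting 0 of the 94 did. The Student test on normalized values gave PC-5p-8157_430 an unadjusted p of 0.180 and PC-5p-219666_20 one of 0.107. The 3 sequences with over 50% in 1 library became 5 by CPM, 0 with at least 20 counts and 20 with no minimum.

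Of 379 alternative log2 fold changes of 23 named sequences, 366 kept their direction and 13 did not. Many of these alternatives keep all libraries and change only scaling, filter or rounding, so a kept direction there says little. Of the 13, 5 came without C replicate 1. When each library was left out in turn, the highest value came without C replicate 1 for PC-3p-436462_9 (-1.06 to 0.86), PC-3p-9281_392 (-0.57 to 0.25), PC-5p-14476_279 (-0.71 to 0.40), PC-5p-363578_11 (-1.87 to 1.41) and PC-5p-4603_641 (-0.50 to 0.61). With quantile normalization, PC-3p-436462_9 was at 0.49, PC-5p-363578_11 at 0.34 and PC-5p-4603_641 at 0.11. PC-3p-3122_828 lay between -0.19 and 0.54, negative without A replicate 1, A replicate 3, C replicate 2 or C replicate 3. The cause was not tested.

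No clear link between same-numbered libraries was seen: their deviations correlated at 0.06, 0.11 and -0.06. The libraries per diet are too few for these values to decide whether the replicate numbers pair the birds. With a replicate block, 9 of the 94 and 60 of all sequences had an unadjusted p under 0.05, and 0 had an adjusted one. In that fit the log2 fold change of PC-5p-4603_641 was 0.0713 (edgeR, unadjusted p = 0.821). Low counts limit most of the 94, of which 37 reached 20 counts.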
